A study of Mus musculus with 70 samples.

Results

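Gene expression was compared between the immune and the non-immune cells of histotripsy-treated B16F10 tumors 3 days after ablation, to ask which compartment supplied ligands, receptors and stress genes early after ablation. The sample labels placed 6 libraries of CD45+ immune cells and 7 libraries of CD45- tumor cells in this comparison, 13 of the 70 libraries of the study. B16F10 is a mouse melanoma line, grown here as tumors on both flanks of C57BL/6 mice of both sexes. Histotripsy is focused ultrasound that breaks tissue mechanically, and it was applied to part of the tumor on 1 flank. The dissociated tumors were stained for CD45, a surface protein of blood-derived cells encoded by Ptprc, and sorted into the CD45+ and the CD45- fraction before RNASeq. Control tumors, from sham-treated mice, gave 4 libraries of each fraction on the same day, and the untreated tumor of the opposite flank (histotripsy-abscopal) gave 7 of each. All groups carried tumors on both flanks and went through the same enzymatic dissociation and the same sort. The labels did not say which libraries came from the same mouse, and groups were not randomized, so p-values measure the spread between these libraries.

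Injured tissue signals through molecules that leave damaged cells, such as S100 proteins, HMGB1 and interleukin-33, and through cytokines and chemokines made by cells that sense them. Chemokines act on G protein-coupled receptors that draw leukocytes along a gradient, while interleukin-1 and tumor necrosis factor act on receptors found on both immune and tissue cells. Heat shock chaperones, the unfolded protein response, antioxidant enzymes and immediate early transcription factors are stress programs that a cell of any lineage can switch on.

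Libraries held 1186404 to 1658775 counts in the treated CD45+ group and 1854131 to 3495650 in the treated CD45- group. Levels are given as CPM (counts scaled to a common library size) after scaling with TMM factors, a method that sets the bulk of genes level between libraries, and they describe each fraction's own RNA. In such bulk samples, fewer cells of a type and less RNA per cell cannot be told apart, and the number of cells in each fraction was not measured. Differences are log2 values, CD45+ minus CD45-, with their standard error (SE), and p-values come from the quasi-likelihood test of edgeR, adjusted over 12391 genes by the method of Benjamini and Hochberg. Positive differences therefore mark genes with the higher level in CD45+ cells. A gene with 3 counts or fewer in every library of a fraction was taken to be at the floor there, and its fold was computed against 3 counts in each library and written as at least that many fold.

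The sorted fractions carried the markers of their labels. Ptprc had 984 to 1725 counts in the CD45+ libraries and 0 to 3 counts in the CD45- libraries. The summed CPM of 12 melanoma markers ranged from 26500 to 35710 in CD45- cells and from 219.5 to 736 in CD45+ cells, and the median marker stood in CD45+ cells at 0.896% of its CD45- level, with 4.64% as the highest. All 12 melanoma markers and all 8 pan-leukocyte markers were called in the direction of their label. The median pan-leukocyte marker stood in CD45- cells at 0.0442% of its CD45+ level, with 9.71% as the highest. The CD45- fraction, labelled as tumor cells, also carried fibroblast transcripts, and the sum of 10 fibroblast markers ranged from 55.6 CPM in replicate 4 to 13030 CPM in replicate 3. In the CD45+ fraction, the sum of 11 neutrophil markers ranged from 1466 CPM in replicate 5 to 40700.0 CPM in replicate 3, which also had the highest sum of 7 erythroid markers (10990 CPM, against 79.0 to 2282 CPM in the other libraries). T cell markers summed to 647 to 1680 CPM and NK cell markers to 338 to 1453 CPM in CD45+ cells, both lowest in replicate 3.

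Most genes differed between the fractions. Of the 12391 genes tested, 4946 (39.9%) were higher in CD45+ cells and 4587 (37.0%) in CD45- cells, 76.9% in either direction, and the median difference was 0.02. A stricter rule also asked for a fitted difference of at least 4-fold. It left 2288 genes (18.5%) higher in CD45+ cells and 1370 (11.1%) higher in CD45- cells, and the counts below follow that rule unless stated. The shares of all genes given here are the background for the list counts below. Of the 457 distinct members of the 18 ligand, receptor and stress lists that were tested, 223 passed it towards CD45+ and 34 towards CD45-. Scaling by library totals in place of TMM factors moved the median of all genes to -0.39 and turned the split of calls to 3814 higher in CD45+ and 6089 higher in CD45-, so differences near 0 carry no direction.

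**Figure D1:**
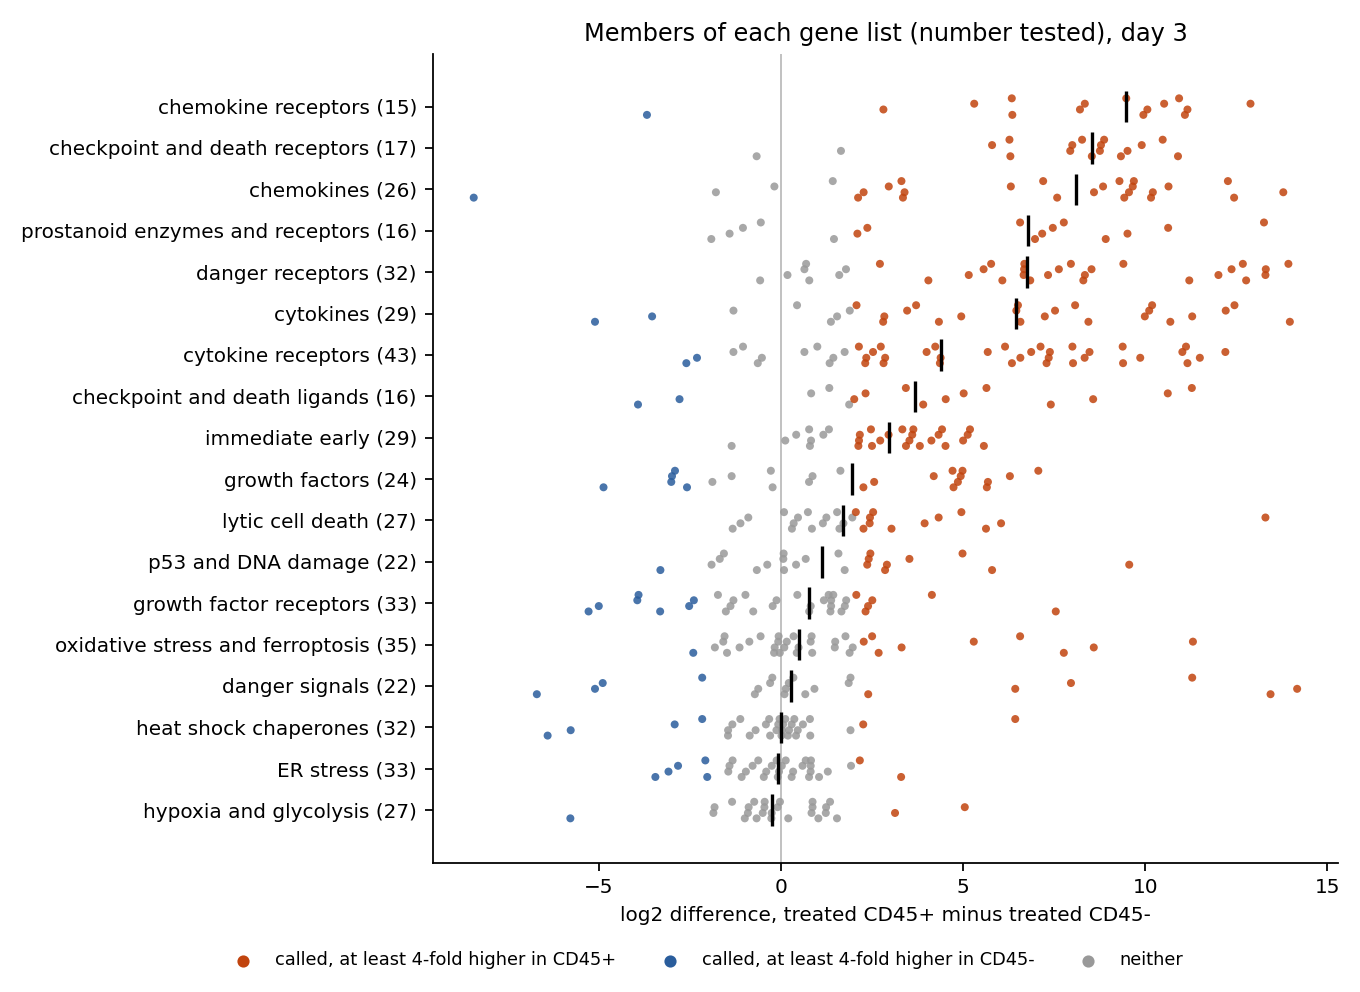
Each point is a gene of a list that was tested, placed by its log2 difference between treated CD45+ and treated CD45- cells on day 3, and the black bar is the list's median. The ligand and receptor lists of immune signaling sit far to the right, with chemokine receptors at a median of 9.48, while heat shock chaperones (-0.01), ER stress genes (-0.08) and hypoxia genes (-0.25) are centered near 0.

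Chemokine transcripts were mostly higher in the CD45+ cells, with a single strong exception. Of 26 chemokines tested, 22 passed the 4-fold rule towards CD45+ and 1, Cxcl12, towards CD45-. The list's median difference was 8.09, or 4.76 when the members at the floor in either fraction were set at their bound, against 0.02 over all genes. A further 11 of the 37 listed chemokines, among them Ccl20 and Cx3cl1, were under the count filter. Cxcl2, a ligand of Cxcr2 that attracts neutrophils, stood at 4317 to 33990.0 CPM (median 11851) in CD45+ cells and at 1.26 to 36.8 CPM (median 3.98) in CD45- cells (difference 10.21 ± 0.65, adjusted p = 1.72e-16). Ccl3, a ligand of Ccr1, had the largest difference of the list, with 1322 to 5671 CPM (median 2749) in CD45+ cells and at most 0.512 CPM in CD45- cells, at least 2638-fold higher. The fractions did not overlap for either gene. Ccl5, a chemokine made by T and NK cells, stood at 446 to 1135 CPM (median 849.8) in CD45+ cells and 2.2 to 10.8 CPM (median 4.92) in CD45- cells (difference 7.20 ± 0.29, adjusted p = 3.06e-22). Cxcl10, an interferon-induced ligand of Cxcr3, reached 69 to 129.9 CPM (median 106) in CD45+ cells and 11 to 40.9 CPM (median 18.3) in CD45- cells (difference 2.27 ± 0.29, adjusted p = 6.48e-09), so its CD45- level was low but measurable in all 7 libraries.

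A second set of chemokines was also made in some CD45- libraries. Cxcl1, which shares Cxcr2 with Cxcl2, stood at 173, 1019, 1406, 143, 194 and 972 CPM in CD45+ replicates 1 to 6 and at 103, 28.5, 221, 1.26, 2.56, 62.4 and 16.9 CPM in CD45- replicates 1 to 7 (difference 3.40 ± 0.66, adjusted p = 1.79e-05). Ccl2, the main ligand of Ccr2 on monocytes, gave 113, 253, 590.4, 83.3, 234 and 163 CPM in CD45+ cells and 40.3, 8.44, 83.9, 0.942, 0.256, 28.3 and 4.48 CPM in CD45- cells (difference 3.35 ± 0.62, adjusted p = 8.61e-06). The fractions overlapped in both genes only through CD45- replicate 3. In CD45- cells, replicates 3 and 1 were far above replicates 4 and 5. Cxcl5, another ligand of Cxcr2, was low in 5 CD45+ libraries but reached 43.5 CPM in replicate 3, while its CD45- values were 92.1, 10.2, 86.9, 0.942, 1.02, 6.28 and 3.49 CPM. Its difference of -1.78 had an adjusted p of 0.0741 and missed the threshold. It was called towards CD45- under 8 of 21 alternatives, among them library totals (adjusted p = 0.0187), no count filter (adjusted p = 0.000159) and replicate number as a block (-1.94, adjusted p = 0.0229). Without CD45+ replicate 3 it was -3.99 with an adjusted p of 0.00246.

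Cxcl12, the ligand of Cxcr4 and Ackr3, ran against the list. No CD45+ library had a count of it, and the CD45- libraries stood at 38.5, 10.5, 75.8, 0.628, 0.768, 8.52 and 6.97 CPM in order of replicate (difference -8.43 ± 1.78, adjusted p = 8.48e-05). Set against 3 counts in each CD45+ library, the CD45- mean was at least 8.32-fold higher, or at least 4.52-fold without CD45- replicate 3. The CD45- libraries spread widely, with replicates 3 and 1 highest and replicates 4 and 5 lowest.

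The chemokine receptors that passed the count filter were mostly higher in the CD45+ fraction. Of 15 tested, 14 were at least 4-fold higher in CD45+ cells and 1, Ackr3, was at least 4-fold higher in CD45- cells. The median difference was 9.48 (5.74 with members at their bound), and 12 members were at the floor in CD45- cells. Such members could pass the filter through CD45+ libraries alone, so the filter largely set their direction. The same holds for members of other lists at the floor in CD45- cells. The rest of the 23 listed receptors, among them Ccr4, Cxcr5 and Ackr1, were under the count filter. Ccr2, by which monocytes leave the marrow, stood at 275 to 636 CPM (median 442) in CD45+ cells and had no count in any CD45- library, at least 383-fold higher. Cxcr4 followed at 199 to 361 CPM (median 259.8), at least 229.6-fold higher than in CD45- cells. Ccr1 (121 to 644 CPM) and the neutrophil receptor Cxcr2 (14.5 to 187 CPM) were at the floor in CD45- cells. Cxcr3, carried by effector T cells, had a smaller difference, with 14.3 to 34.9 CPM (median 23.9) in CD45+ cells and 1.41 to 7.97 CPM (median 3.14) in CD45- cells (2.82 ± 0.26, adjusted p = 6.02e-12). Ackr3, a scavenger of Cxcl12 that does not signal through G proteins, stood at 2.51 to 95.8 CPM (median 19.9) in CD45- cells and 0 to 9.96 CPM (median 1.44) in CD45+ cells (-3.67 ± 0.73, adjusted p = 2.74e-05). CD45+ replicate 3 (9.96 CPM) reached above the lowest CD45- libraries. Over 22 alternatives the difference ranged from -4.78 to -2.71.

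Promoter sequences are shown for the 3 chemokine genes that the contrast turned on, as the 250 bases before and 50 after the start site given by RefSeq on GRCm38.p6. Capitals mark matches to the core of an NF-kB site, read as GGG and TTTCC with 2 bases of any kind between them, on either strand. Such a match stood in 1.63% of 32817 promoters of this length. Cxcl1 and Cxcl2 lie beside each other on chromosome 5 (gene positions on GRCm38, chr5:90891241-90893115 and chr5:90903871-90905938) and each held 2 matches, which did not overlap. Cxcl12 (chr6:117168535-117181367) held 0. The promoters of Il1b and S100a8, which were also far higher in CD45+ cells (differences 13.97 and 13.44), held 0 as well. No comparison of matches between the fractions was made. A match is a string of letters and not a measured binding site, and its absence applies to this window only.
Cxcl1, chr5:90890995-90891294, plus strand: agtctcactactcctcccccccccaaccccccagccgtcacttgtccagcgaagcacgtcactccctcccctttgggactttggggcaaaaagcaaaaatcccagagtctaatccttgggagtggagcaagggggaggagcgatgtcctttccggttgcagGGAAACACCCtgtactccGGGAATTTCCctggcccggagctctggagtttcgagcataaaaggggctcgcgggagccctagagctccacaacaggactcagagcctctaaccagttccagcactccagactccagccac
Cxcl2, chr5:90903649-90903948, plus strand: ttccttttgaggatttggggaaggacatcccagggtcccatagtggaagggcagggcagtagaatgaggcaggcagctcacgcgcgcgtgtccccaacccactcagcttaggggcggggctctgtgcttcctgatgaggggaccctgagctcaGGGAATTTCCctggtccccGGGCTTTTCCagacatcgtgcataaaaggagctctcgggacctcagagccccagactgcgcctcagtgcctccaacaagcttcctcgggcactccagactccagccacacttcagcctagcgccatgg
Cxcl12, chr6:117168285-117168584, plus strand: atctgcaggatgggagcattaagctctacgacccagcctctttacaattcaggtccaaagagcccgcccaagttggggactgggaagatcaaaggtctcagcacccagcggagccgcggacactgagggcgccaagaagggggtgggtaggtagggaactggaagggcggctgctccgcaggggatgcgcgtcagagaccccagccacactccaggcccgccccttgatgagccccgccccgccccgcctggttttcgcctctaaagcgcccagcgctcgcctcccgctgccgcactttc

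Cytokine genes followed the chemokines, with 22 of 29 tested at least 4-fold higher in CD45+ cells and 2 at least 4-fold higher in CD45- cells (median 6.46, or 3.77 with members at their bound). Il1b, the interleukin-1 that inflammasomes process, had the largest difference, with 4077 to 12272 CPM (median 6702) in CD45+ cells and 0 to 1.26 CPM (median 0) in CD45- cells (13.97 ± 0.41, adjusted p = 3e-26). Tnf stood at 957 to 3862 CPM (median 1988) in CD45+ cells and at most 0.996 CPM in CD45- cells, at least 1756-fold higher. Il1a, an interleukin-1 that dying cells can release in active form, stood at 38 to 379 CPM (median 106) in CD45+ cells and had no count in any CD45- library, at least 127-fold higher. These ligands of inflammation thus had their transcripts in the CD45+ fraction in all 6 libraries. Osm, an interleukin-6 family ligand of myeloid cells, was at 150.2 to 548 CPM (median 218) in CD45+ cells and at the floor in CD45- cells, at least 234-fold higher. Il6 itself was low in both fractions, at 5.6 to 21.7 CPM (median 12.9) and 0 to 17.8 CPM (median 3.59), and its difference of 1.37 ± 0.58, adjusted p = 0.0304, lost its call under 8 of 22 alternatives, with 0.118 as the highest adjusted p.

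Il33, an alarmin kept in the nucleus of tissue cells, was the cytokine that most favored the CD45- fraction. Its CD45- values were 52.7, 8.79, 58.7, 0.942, 2.3, 8.97 and 11.5 CPM in order of replicate, and CD45+ cells had at most 0.906 CPM (-5.10 ± 0.98, adjusted p = 1.68e-05), so that the CD45- mean was at least 8.45-fold higher than the CD45+ floor. The lowest CD45- library was barely above the highest CD45+ library. Its receptor Il1rl1 (ST2) stood at 3 to 32.4 CPM (median 17.7) in CD45+ cells and 0.314 to 34.9 CPM (median 2.49) in CD45- cells, and the fractions overlapped (0.65 ± 0.61, adjusted p = 0.334).

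Most cytokine receptor transcripts were higher in CD45+ cells. Of 43 tested, 32 were at least 4-fold higher in CD45+ cells and 2, led by Tnfrsf12a, in CD45- cells (median 4.39). Il1r2, the decoy receptor that binds interleukin-1 without signaling, stood at 299 to 1417 CPM (median 685) in CD45+ cells and 0 to 4.09 CPM (median 0.703) in CD45- cells (9.39 ± 0.44, adjusted p = 2.5e-19). The signaling receptor Il1r1 was under the count filter, with 0.751 to 4.15 CPM in CD45+ cells and 13.3, 5.27, 35.3, 0, 1.28, 3.14 and 1.49 CPM in CD45- cells, where replicates 3 and 1 were again the highest. Counted as 3' tags, the decoy was far above the signaling receptor in every CD45+ library. For tumor necrosis factor, Tnfrsf1b stood at 146 to 606 CPM (median 236) in CD45+ cells and 0 to 1.86 CPM in CD45- cells (8.47 ± 0.40, adjusted p = 3.43e-19), whereas the widely expressed Tnfrsf1a was at 198 to 285 CPM (median 228) and 61.5 to 120.4 CPM (median 90.8), a difference of 1.34 ± 0.13, adjusted p = 1.21e-11. Il2rb, a chain of the interleukin-2 and interleukin-15 receptors of T and NK cells, had the largest difference of the list at 237 to 739 CPM in CD45+ cells, at least 451-fold above the CD45- floor. Il6st, the shared gp130 chain of the interleukin-6 family, was slightly higher in CD45- cells, 47.8 to 94.4 CPM (median 55.9) against 40.5 to 49.8 CPM (median 44.8) (-0.52 ± 0.15, adjusted p = 0.00191), a call that was lost without the CD45- replicates highest in fibroblast markers (adjusted p = 0.0513). Osmr, which binds Osm together with gp130, was low in both fractions and did not pass (-1.04 ± 0.49, adjusted p = 0.0535), but it was called towards CD45- under 8 of 17 alternatives, among them library totals (adjusted p = 0.0069), no count filter (adjusted p = 0.0241) and replicate number as a block (adjusted p = 0.0242). Tnfrsf12a (Fn14), the receptor of the TWEAK ligand, stood at 64.2 to 130.0 CPM (median 77.9) in CD45- cells and 10.4 to 18.2 CPM (median 13.1) in CD45+ cells (-2.59 ± 0.28, adjusted p = 1.62e-10), with no overlap.

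**Figure D2:**
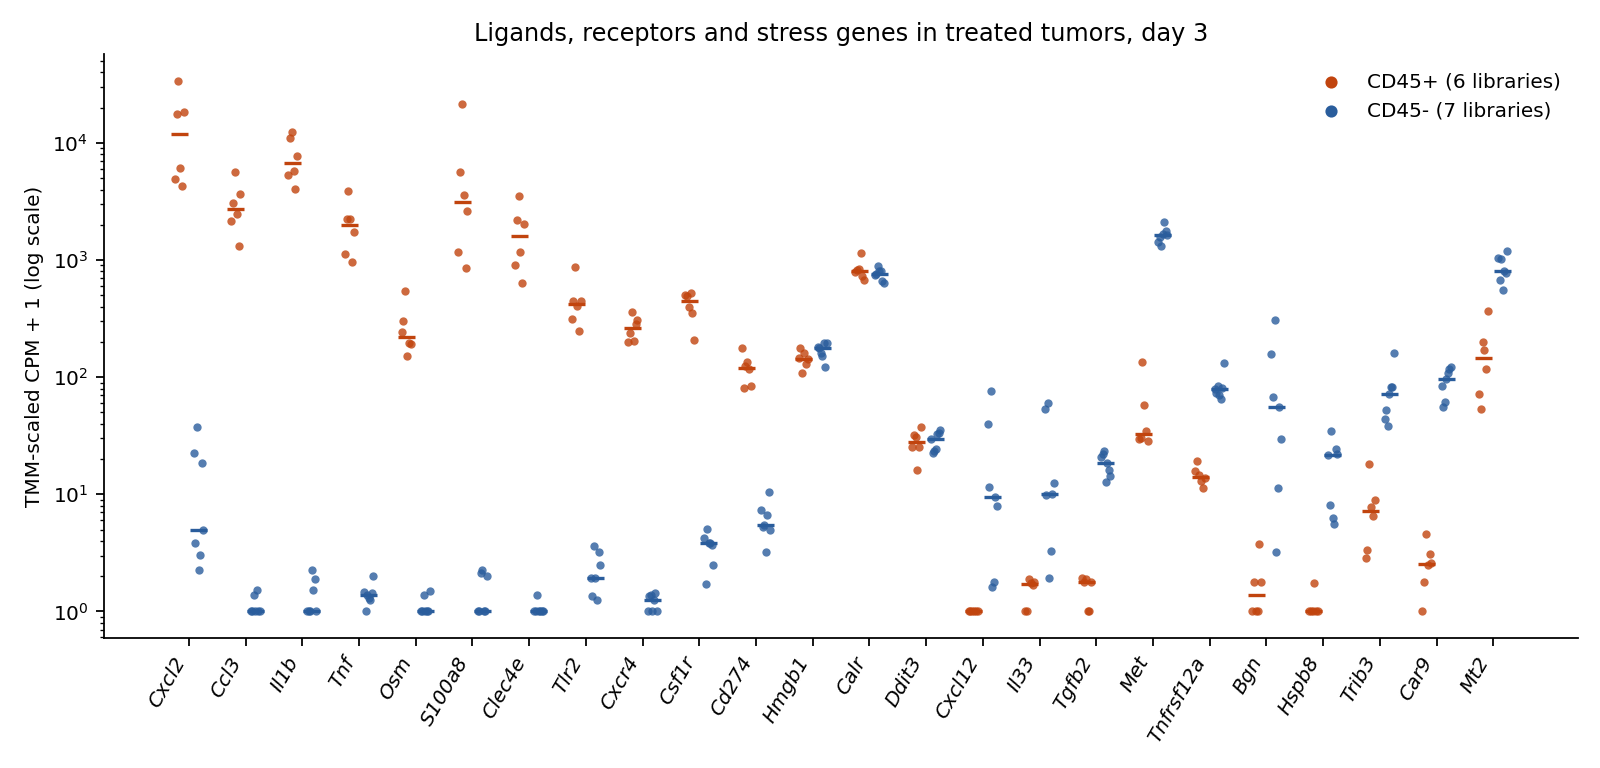
Scaled CPM plus 1 on a log axis for 24 ligand, receptor and stress genes in the 6 treated CD45+ libraries and the 7 treated CD45- libraries of day 3, 1 point per library, with a bar at the median. Il1b, Tnf and Clec4e sit near the bottom of the axis in CD45- cells, where Cxcl2 reaches 36.8 CPM. Hmgb1, Calr and Ddit3 overlap between the fractions, and Met, Car9, Mt2, Trib3 and Tnfrsf12a are higher in every CD45- library than in any CD45+ library.

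Growth factor transcripts were found in both fractions. Of 24 tested, 12 were at least 4-fold higher in CD45+ cells and 5 in CD45- cells, against 18.5% and 11.1% of all genes (median 1.95). Areg, a ligand of the EGF receptor, stood at 30.1 to 87.8 CPM (median 49.4) in CD45+ cells and 0 to 1.83 CPM in CD45- cells (7.07 ± 0.43, adjusted p = 3.22e-16), and Tgfb1 at 59.5 to 86.9 CPM (median 75.2) and 1.35 to 3.58 CPM (median 2.46) (4.86 ± 0.22, adjusted p = 1.22e-20). Tgfb2, a close relative that binds the same receptors, ran the other way, with 11.6 to 22.3 CPM (median 17.4) in CD45- cells and at most 0.934 CPM in CD45+ cells (-4.86 ± 0.43, adjusted p = 1.62e-12), at least 7.09-fold higher in CD45- cells. Unlike Cxcl12 and Il33, it was close to level over the CD45- libraries. Csf1, which sustains macrophages, was at 40.8 to 336 CPM (median 152) in CD45+ cells and 2.49 to 25.3 CPM (median 3.07) in CD45- cells (4.34 ± 0.46, adjusted p = 1.05e-10). Spp1, an extracellular ligand of Cd44 and integrins, stood at 509.5 to 1556 CPM (median 699.9) and 2.83 to 62.3 CPM (median 7.38) (5.68 ± 0.53, adjusted p = 6.1e-12). Vegfa overlapped between the fractions, at 93.9 to 221 CPM (median 181) in CD45+ cells and 72.9 to 111 CPM (median 90.6) in CD45- cells (0.87 ± 0.16, adjusted p = 8.35e-06). Kitl was under the count filter, with at most 2.37 CPM in CD45+ cells and 7.06 CPM in CD45- cells.

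Growth factor receptors were found in both fractions. Of 33 tested, 6 were at least 4-fold higher in CD45+ cells and 7 in CD45- cells, against 18.5% and 11.1% of all genes (median 0.78). Met, the receptor of hepatocyte growth factor, stood at 1310.5 to 2118 CPM (median 1628) in CD45- cells and 27.8 to 134 CPM (median 31.5) in CD45+ cells (-4.99 ± 0.42, adjusted p = 3.46e-13). Its CD45+ mean was 3.16% of its CD45- mean, inside the range of the melanoma markers in that fraction. Csf1r, the receptor of Csf1 on macrophages, was at 206 to 518 CPM (median 446) in CD45+ cells and 0.703 to 4.09 CPM (median 2.82) in CD45- cells (7.29 ± 0.26, adjusted p = 1.32e-22), and Csf3r, which drives neutrophil output, was at 30 to 289.8 CPM in CD45+ cells, at least 94.9-fold above the CD45- floor. Csf1r and Csf3r are members of the cytokine receptor list. Among the listed growth factor receptors, the scavenger receptor Cd36 had the largest difference towards CD45+ (35.5 to 322 CPM (median 110.4) against 0 to 1.26 CPM, 7.55 ± 0.53, adjusted p = 3.45e-15). Kit was low, at 7.11 to 18 CPM (median 12.9) in CD45+ cells and 2.3 to 6.31 CPM (median 3.49) in CD45- cells (1.76 ± 0.32, adjusted p = 7.7e-06). Tgfbr2 overlapped between the fractions (22.5 to 50.7 CPM against 4.71 to 57.9 CPM, 0.78 ± 0.32, adjusted p = 0.0263) and lost its call under 7 of 22 alternatives, with 0.289 as the highest adjusted p. Cd44 stood at 599.9 to 3274 CPM (median 902) in CD45+ cells and 402 to 558 CPM (median 500.2) in CD45- cells, with no overlap (1.44 ± 0.23, adjusted p = 1.11e-06), and its difference was 0.93 without CD45+ replicate 3.

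The danger signal list was centered at 0.28. Of 22 tested members, 6 were at least 4-fold higher in CD45+ cells and 4 in CD45- cells, beside 18.5% and 11.1% of all genes. S100a8, an alarmin of myeloid cells, stood at 1179, 5601, 21636, 3618, 848 and 2600.2 CPM in CD45+ replicates 1 to 6 and at most 1.26 CPM in CD45- cells (13.44 ± 0.85, adjusted p = 1.24e-16). S100a9, its partner in calprotectin, ranged over 409.7 to 16325 CPM (median 1540.4) in CD45+ cells, at least 3462-fold above the CD45- floor, or at least 1331-fold without CD45+ replicate 3. In CD45+ cells both genes moved with the neutrophil marker sum, to which they belong, and were highest in replicate 3. Without it the fitted difference of S100a8 was 12.36. The matrix proteoglycan Bgn, a ligand of Tlr2 and Tlr4 when released, stood at 158, 66.1, 304, 2.2, 10.2, 54.7 and 28.4 CPM in CD45- cells and at most 2.76 CPM in CD45+ cells, a value that lay above CD45- replicate 4 (-6.69 ± 1.11, adjusted p = 1.53e-06). Hmgb1, a chromatin protein that is released from dying cells, stood at 107 to 176 CPM (median 143) in CD45+ cells and 120.2 to 195 CPM (median 175) in CD45- cells (-0.23 ± 0.15, adjusted p = 0.142). Calr, a chaperone exposed on the surface of cells undergoing immunogenic death, gave 676 to 1153 CPM (median 805) and 639 to 887 CPM (median 757) (0.14 ± 0.12, adjusted p = 0.293), and Anxa1 gave 27 to 154 CPM (median 76.1) and 45.3 to 112 CPM (median 63.3) (0.22 ± 0.31, adjusted p = 0.522). Hmgb1, Calr and Anxa1 did not pass the test, and the libraries of the fractions overlapped in each gene. Under library totals Hmgb1 (-0.63, adjusted p = 0.000178) and Calr (-0.28, adjusted p = 0.0285) were called towards CD45-. Hmgb1 was so called under 3 of 22 alternatives, among them no count filter (-0.39, adjusted p = 0.0317).

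Receptors that sense such signals lay with the CD45+ cells. Of 32 danger receptors tested, 25 were at least 4-fold higher in CD45+ cells and 29 were higher there without the fold limit (median 6.76, or 5.20 with members at their bound). The other 3 did not pass in either direction. Clec4e (Mincle), a C-type lectin that recognizes a protein of dead cells, stood at 630.2 to 3496 CPM (median 1599.7) in CD45+ cells and at most 0.371 CPM in CD45- cells, at least 1503-fold higher. Tlr2 was at 246 to 868 CPM (median 422) in CD45+ cells and 0.256 to 2.6 CPM (median 0.942) in CD45- cells (8.53 ± 0.35, adjusted p = 5.75e-22). Tlr4, the receptor of lipopolysaccharide and of released S100a8 and Hmgb1, differed far less, with 18 to 84.2 CPM (median 29.5) in CD45+ cells and 6.69 to 16.6 CPM (median 12.3) in CD45- cells, and all 7 CD45- libraries had it (1.60 ± 0.25, adjusted p = 4.16e-07). Of these 3 receptors, Tlr4 alone was above 2.60 CPM in every CD45- library.

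Of 16 checkpoint and death ligands tested, 11 were at least 4-fold higher in CD45+ cells and 2 in CD45- cells (median 3.67), and of 17 of their receptors, 15 were at least 4-fold higher in CD45+ cells and 1 more was higher there without the fold limit (median 8.54, or 5.58 with members at their bound). Cd274 (PD-L1), which restrains T cells through Pdcd1, stood at 80.6 to 177 CPM (median 119.6) in CD45+ cells and 2.2 to 9.42 CPM (median 4.46) in CD45- cells (4.53 ± 0.28, adjusted p = 9.29e-17). Pdcd1 itself was at 19 to 77.7 CPM in CD45+ cells and had no count in CD45- cells, at least 48-fold higher. Ligand and receptor were thus both higher in the CD45+ fraction. The costimulatory ligand Cd86 (85.7 to 216 CPM) and its inhibitory receptor Ctla4 (59.8 to 174 CPM) likewise had counts in CD45+ cells only, at least 126-fold and 96.2-fold higher. Cd276 (B7-H3) favored the CD45- cells, at 7.38 to 20.4 CPM (median 11.9) against at most 2.80 CPM in CD45+ cells (-3.92 ± 0.45, adjusted p = 8.38e-10). The phagocytosis checkpoint Cd47 stood at 368 to 446 CPM (median 379) in CD45+ cells and 58.3 to 110.0 CPM (median 74.9) in CD45- cells (2.33 ± 0.13, adjusted p = 1.32e-18), and its receptor Sirpa at 69.8 to 227 CPM (median 127) and 41.3 to 56.5 CPM (median 43.5) (1.65 ± 0.17, adjusted p = 1.02e-10). Both partners of that pair were measurable in all 13 libraries and higher in the CD45+ ones.

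Ligands were then set beside their receptors in 112 pairs taken from textbook knowledge. Both partners were tested in 81, which draw on shared ligands and receptors and so do not stand for 81 separate observations. In 37 pairs (45.7%) ligand and receptor were both at least 4-fold higher in CD45+ cells, and in 1 pair, Cxcl12 and Ackr3, both were at least 4-fold higher in CD45- cells. Taken alone, the ligand was at least 4-fold higher in CD45+ cells in 54 of the 81 pairs and the receptor in 54, so the joint count describes the lists and was not tested as a property of pairs. By their fitted differences, the partners were at least 4-fold higher in opposite fractions in 6 pairs, which are named here after their values were seen. In 3 of them the ligand was on the CD45- side. These were Cxcl12 with Cxcr4, Vegfb with its receptor Flt1 and Nectin2 with the activating receptor Cd226. Vegfb stood at 81.2 to 108 CPM (median 84.3) in CD45- cells and 7.11 to 17.2 CPM (median 10.8) in CD45+ cells (-3.01 ± 0.22, adjusted p = 5.71e-15), and Flt1 at 0.628 to 18.9 CPM (median 2.81) and 19 to 57.9 CPM (median 32.1) (2.40 ± 0.50, adjusted p = 6.17e-05). Nectin2 stood at 23.4 to 37.7 CPM (median 24.6) in CD45- cells and 1.58 to 7.47 CPM (median 3.65) in CD45+ cells (-2.78 ± 0.32, adjusted p = 9.42e-10), and Cd226 had 18.1 to 34.5 CPM in CD45+ cells and no count in CD45- cells.

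In the other 3 opposite pairs the ligand was on the CD45+ side. Tnfsf12 (TWEAK) stood at 3.17 to 13.4 CPM (median 6.08) in CD45+ cells and 0.449 to 5.2 CPM (median 1.02) in CD45- cells (2.08 ± 0.46, adjusted p = 0.000119), opposite to its receptor Tnfrsf12a. Pdgfb stood at 9.48 to 26.3 CPM (median 15.2) in CD45+ cells and 0 to 2.29 CPM (median 0.371) in CD45- cells (4.74 ± 0.49, adjusted p = 7.77e-11), and its receptor Pdgfrb at 0.942 to 24.5 CPM (median 5.38) in CD45- cells and at most 0.906 CPM in CD45+ cells (-5.28 ± 0.97, adjusted p = 8.67e-06). Pdgfrb is also 1 of the fibroblast markers. It was at the floor in CD45+ cells, where 3 counts in each library equal 2.43 CPM. Its CD45- mean of 7.45 CPM is less than 4-fold above that, so the bound does not show 4-fold. Nrg1 stood at 5.26 to 22.4 CPM (median 6.63) in CD45+ cells and 0 to 1.49 CPM (median 0.314) in CD45- cells (4.71 ± 0.54, adjusted p = 9.53e-10), opposite to its receptor Erbb3 at 8.25 to 18.2 CPM (median 14.1) in CD45- cells and 0 to 3.46 CPM (median 1.25) in CD45+ cells (-3.31 ± 0.39, adjusted p = 1.36e-09). In a further 14 pairs, such as Tnf with Tnfrsf1a and Osm with Osmr, the ligand was at least 4-fold higher in CD45+ cells and the receptor passed the 4-fold rule in neither direction.

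**Figure D3:**
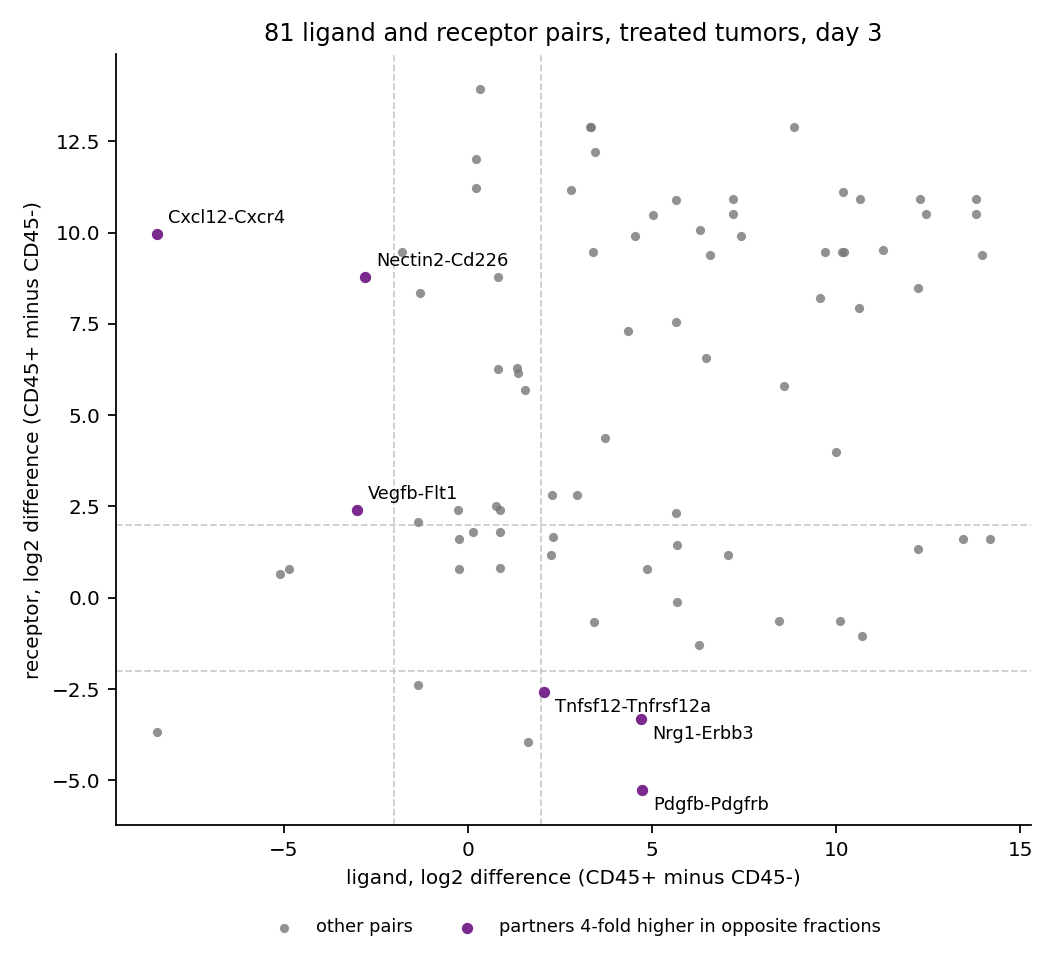
Each point is 1 of 81 ligand and receptor pairs, with the ligand's log2 difference between treated CD45+ and CD45- cells on the horizontal axis and the receptor's on the vertical axis; dashed lines mark 4-fold. The 37 pairs in which both partners were at least 4-fold higher in CD45+ cells lie in the upper right, and the 6 pairs with partners in opposite fractions are named.

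Heat shock chaperones were centered at 0 (-0.01), with 2 of 32 at least 4-fold higher in CD45+ cells and 4 in CD45- cells. Without the fold limit, 9 were higher in CD45+ cells and 12 in CD45- cells, beside 39.9% and 37.0% of all genes. Dnajb1, a partner of Hsp70 that is induced by heat, stood at 274 to 457 CPM (median 355) in CD45+ cells and 168 to 582 CPM (median 243) in CD45- cells (0.23 ± 0.27, adjusted p = 0.449). The constitutive Hspa8 was at 420.4 to 656 CPM (median 502) and 313 to 512 CPM (median 421) (0.37 ± 0.14, adjusted p = 0.0132), a difference that was -0.04 under library totals. Hspb8, a small chaperone active in autophagy, was at 4.61 to 33.4 CPM (median 20.6) in CD45- cells and at most 0.751 CPM in CD45+ cells, at least 6.77-fold higher in CD45- cells.

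The inducible Hsp70 genes Hspa1a and Hspa1b, which are copies of each other, did not share a pattern. Hspa1a stood at 962, 713, 1841, 1097, 2001 and 920.1 CPM in CD45+ replicates 1 to 6 and at 30.3, 7.73, 48.3, 2.2, 1.28, 11.7 and 1.99 CPM in CD45- replicates 1 to 7 (6.43 ± 0.55, adjusted p = 6.19e-13). Hspa1b stood at 816, 634, 1779, 614, 1659.7 and 794 CPM in CD45+ cells and at 140.3, 277, 194, 545, 283, 378 and 130.0 CPM in CD45- cells (1.91 ± 0.33, adjusted p = 3.82e-06). Counted as 3' tags, which do not scale with gene length, Hspa1a was above Hspa1b in every CD45+ library and below it in every CD45- library. In CD45- cells, Hspa1a was highest in replicates 3 and 1, and Hspa1b was highest in replicate 4. The genes lie on the minus strand of chromosome 17 (chr17:34969190-34972156 and chr17:34956436-34959238). Since they are near identical, reads that fit both may have been dropped or assigned unevenly, so the split between them is uncertain.

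Their RefSeq promoters on GRCm38.p6 were alike at 296 of 300 positions (98.7%). They are shown because the counted levels differed in CD45- cells, a split that is uncertain as said above. Counted from 1 at the 5′ end, Hspa1b differs from Hspa1a by C44T, T47C, T249G and C276T. Capitals mark GAANNTTC, the core of a heat shock element, which each held once and which 7.86% of 32817 promoters held. None of the 4 differences falls in the capitals.
Hspa1a, chr17:34972107-34972406, minus strand: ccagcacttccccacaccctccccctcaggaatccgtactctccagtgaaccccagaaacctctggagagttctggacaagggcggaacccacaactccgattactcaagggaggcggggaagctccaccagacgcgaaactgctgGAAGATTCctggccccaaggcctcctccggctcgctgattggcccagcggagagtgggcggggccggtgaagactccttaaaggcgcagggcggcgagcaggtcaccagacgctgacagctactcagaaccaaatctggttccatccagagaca
Hspa1b, chr17:34959189-34959488, minus strand: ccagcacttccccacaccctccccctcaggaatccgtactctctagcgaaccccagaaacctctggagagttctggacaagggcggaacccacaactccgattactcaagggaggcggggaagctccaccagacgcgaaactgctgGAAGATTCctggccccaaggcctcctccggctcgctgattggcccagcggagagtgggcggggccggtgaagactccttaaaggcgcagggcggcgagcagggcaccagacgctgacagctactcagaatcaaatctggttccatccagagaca

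The unfolded protein response had members on both sides. Of 33 ER stress genes tested, 2 were at least 4-fold higher in CD45+ cells and 5 in CD45- cells, beside 18.5% and 11.1% of all genes (median -0.08). Trib3, a pseudokinase induced through Atf4 and Ddit3, stood at 37.5 to 161 CPM (median 71) in CD45- cells and 1.87 to 17.2 CPM (median 6.14) in CD45+ cells (-3.44 ± 0.38, adjusted p = 3.7e-10). Ppp1r15a (Gadd34), which restores protein synthesis, stood at 85 to 224 CPM (median 152) in CD45+ cells and 9.63 to 20.1 CPM (median 15.9) in CD45- cells (3.30 ± 0.20, adjusted p = 4.57e-17). The 2 genes are both targets of this response and lay on opposite sides without overlap. Ddit3 (CHOP) was at 15 to 36.5 CPM (median 27.1) and 21.4 to 34.4 CPM (median 28.4), a difference of -0.05 ± 0.17, adjusted p = 0.801. Hspa5 (BiP), the main ER chaperone, stood at 2382 to 4438 CPM (median 3346) in CD45+ cells and 1755 to 2699 CPM (median 2356) in CD45- cells (0.60 ± 0.14, adjusted p = 0.000214), and under library totals this was 0.16 with an adjusted p of 0.275. Atf3 stood at 363 to 661 CPM (median 498) in CD45+ cells and 77.5 to 137 CPM (median 119.6) in CD45- cells (2.17 ± 0.17, adjusted p = 2.73e-14).

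Immediate early genes lay mostly with the CD45+ cells. Of 29 tested, 21 were at least 4-fold higher there, and without the fold limit 27 were higher in CD45+ cells and 1 in CD45- cells (median 2.96). Egr3 had the largest difference, at 40.8 to 214 CPM (median 125) in CD45+ cells and 0.512 to 5.94 CPM (median 2.29) in CD45- cells (5.57 ± 0.36, adjusted p = 1.95e-16). Fos was much closer, at 352 to 551 CPM (median 445) and 177 to 344 CPM (median 246) (0.80 ± 0.19, adjusted p = 0.000216). Under library totals the difference of Fos was 0.39 with an adjusted p of 0.0676.

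Oxidative stress genes were mixed. Of 35 tested, 9 were at least 4-fold higher in CD45+ cells and 1 in CD45- cells, beside 18.5% and 11.1% of all genes (median 0.49). Cybb, the catalytic subunit of the phagocyte oxidase, was at 526 to 985 CPM (median 816) in CD45+ cells, at least 705-fold above the CD45- floor. Slc7a11, the cystine transporter that feeds glutathione synthesis and holds back ferroptosis, stood at 363, 650.2, 1857, 379, 234 and 663 CPM in CD45+ cells and 15.1, 13.7, 11.9, 20.4, 11.3, 23.8 and 28.4 CPM in CD45- cells (5.30 ± 0.37, adjusted p = 2.61e-15). Replicate 3 was the highest CD45+ library, and the difference was 4.72 without it. Hmox1, which breaks down heme, was at 676 to 2533 CPM (median 984) and 313 to 711 CPM (median 436) (1.48 ± 0.27, adjusted p = 9.55e-06). Gpx4, the enzyme that repairs lipid peroxides, had few counts and was higher in CD45- cells, at 10.1 to 32.4 CPM (median 19.7) against 2.8 to 12 CPM (median 7.14) (-1.48 ± 0.40, adjusted p = 0.00119). Mt2, a metal-binding metallothionein, stood at 552 to 1184 CPM (median 806) in CD45- cells and 52.1 to 369 CPM (median 144) in CD45+ cells (-2.40 ± 0.33, adjusted p = 3.83e-08), the largest difference of the list towards CD45-.

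Genes of lytic cell death lay mostly with the CD45+ cells, where 12 of 27 were at least 4-fold higher, beside 18.5% of all genes. Without the fold limit, 22 were higher in CD45+ cells and 3 in CD45- cells, beside 39.9% and 37.0% of all genes (median 1.72). The inflammasome sensor Nlrp3 stood at 250.1 to 1301 CPM (median 489.8) in CD45+ cells and had no count in CD45- cells, at least 509.7-fold higher. Gsdmd, the pore former of pyroptosis, was at 34.1 to 91.5 CPM (median 69.4) and 0.996 to 6.73 CPM (median 4.35) (3.95 ± 0.26, adjusted p = 3.5e-16). The necroptosis partners parted. Ripk3, the kinase, was at 10.3 to 38 CPM (median 26.9) in CD45+ cells and 0 to 4.46 CPM (median 1.35) in CD45- cells (4.33 ± 0.40, adjusted p = 3.36e-12), while Mlkl, the effector it phosphorylates, was at 1.59 to 16.8 CPM (median 8.62) and 6.59 to 29.3 CPM (median 19.9) (-1.32 ± 0.34, adjusted p = 0.000685). Ripk3 thus stood at 4.46 CPM or less in the fraction in which Mlkl was higher.

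Of 27 hypoxia and glycolysis genes, 2 were at least 4-fold higher in CD45+ cells and 1 in CD45- cells, beside 18.5% and 11.1% of all genes (median -0.25). Car9, a carbonic anhydrase of hypoxic cells, was at 54.8 to 120.0 CPM (median 95.1) in CD45- cells and 0 to 3.62 CPM (median 1.54) in CD45+ cells (-5.77 ± 0.43, adjusted p = 1.15e-14), and Egln3, an oxygen sensor that hypoxia also induces, was at 67.3 to 312 CPM (median 98.1) in CD45+ cells and 1.57 to 4.98 CPM (median 4.13) in CD45- cells (5.05 ± 0.34, adjusted p = 1.06e-15). Of 22 genes of the p53 and DNA damage list, 9 were at least 4-fold higher in CD45+ cells and 1 in CD45- cells, beside the same shares (median 1.13). Pmaip1 (Noxa), which promotes apoptosis, was at 173 to 340.5 CPM (median 240.2) in CD45+ cells, at least 211-fold above the CD45- floor, and Phlda3, an inhibitor of Akt, was at 28 to 58.8 CPM (median 42.7) in CD45- cells and 0 to 13.5 CPM (median 0.864) in CD45+ cells (-3.30 ± 0.37, adjusted p = 5.26e-10). Of 16 prostanoid enzymes and receptors, 11 were at least 4-fold higher in CD45+ cells, and without the fold limit 12 were higher there and 4 in CD45- cells (median 6.77, or 3.63 with members at their bound). Ptgs2 (COX-2) stood at 243 to 1299 CPM (median 429.7) in CD45+ cells and 0 to 22.3 CPM (median 2.81) in CD45- cells (6.57 ± 0.48, adjusted p = 9.42e-15), and Ptafr, the receptor of platelet-activating factor, at 297 to 1329 CPM in CD45+ cells with no count in CD45- cells.

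The CD45- libraries differed among themselves in their content of fibroblast transcripts, and part of the CD45- ligands moved with it. The fibroblast sum was 5643, 2027, 13030, 55.6, 237.0, 2370.0 and 1044 CPM in CD45- replicates 1 to 7. Replicates 3 and 1, with the highest sums, also had the 2 highest levels of Cxcl12, Il33, Cxcl1, Cxcl2, Ccl2, Il1rl1, Il1r1, Bgn and Hspa1a, and of Cxcl5. Their mean was 10.4 times the mean of the other 5 libraries for Cxcl12, 8.58 times for Il33, 20.4 times for Cxcl5, 7.33 times for Ccl2 and 7.90 times for Hspa1a. For Met, Tgfb2, Tnfrsf12a and Hspa1b the same ratio was 0.780, 1.33, 0.970 and 0.517. These genes were picked after their values were seen, and the part of fibroblasts in the levels was not tested.

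Differences were computed again without CD45- replicates 1 and 3, an alternative chosen after seeing the data. Cxcl12 (-6.48 ± 1.69, adjusted p = 0.00105) and Il33 (-3.38 ± 0.84, adjusted p = 0.000499) were still called higher in CD45- cells. The fitted value of Cxcl12 is taken over a CD45+ group without a count and is no size, and against the CD45+ floor the mean of the other 5 CD45- libraries was at least 2.26-fold higher for Cxcl12 and 2.67-fold for Il33. Tgfb2 (-4.74 ± 0.45, adjusted p = 1.44e-11) and Met (-5.09 ± 0.43, adjusted p = 9.07e-13) hardly moved. Cxcl1 (4.93 ± 0.70, adjusted p = 1.07e-07) and Ccl2 (4.94 ± 0.67, adjusted p = 4.25e-08) moved further towards CD45+, and Il1rl1, which had not passed with all libraries, was then higher in CD45+ cells (1.97 ± 0.62, adjusted p = 0.0054). Cxcl5 changed sign without passing (0.95 ± 0.89, adjusted p = 0.327). Over all genes, 2373 were then at least 4-fold higher in CD45+ cells and 1336 in CD45- cells.

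**Figure D4:**
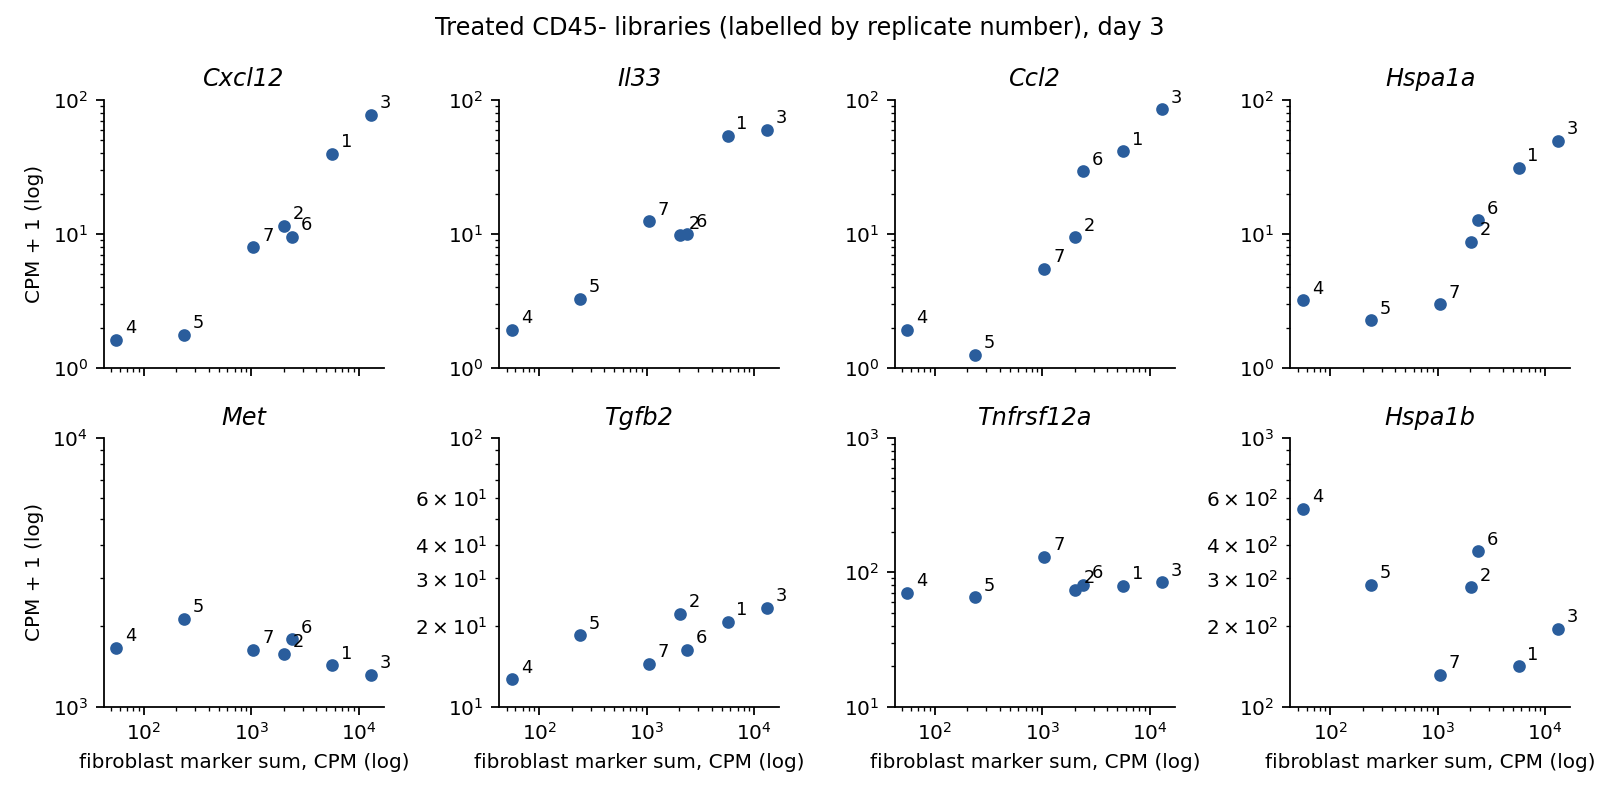
Scaled CPM plus 1 of 8 genes (vertical, log axis) against the summed CPM of 10 fibroblast markers (horizontal, log axis) in the 7 treated CD45- libraries of day 3, numbered by replicate. Cxcl12, Il33, Ccl2 and Hspa1a are highest in replicates 3 and 1, which have the highest sums of 13030 and 5643 CPM, whereas Met, Tgfb2 and Tnfrsf12a stay within narrow ranges.

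Whether the split between the fractions differed from that in sham-treated tumors was tested as the difference of 2 fraction differences. Of 12391 genes, 176 (1.42%) moved towards CD45+ in treated tumors and 62 (0.5%) towards CD45-, 1.92% in either direction, while 2004 had an unadjusted p under 0.05. Among the 457 list members tested, 13 moved towards CD45+ and 2 towards CD45-, and of the 61 fixed genes tested, 4 were called (Csf1r, Vegfa, Atf3 and Slc7a11). The called members were receptors, growth factors and stress genes. For the chemokines Cxcl2 (-1.75 ± 1.29, adjusted p = 0.53) and Ccl2 (-3.79 ± 1.20, adjusted p = 0.0898) a change of the split was not detected with these libraries. For Cxcl12 the SE of -4.57 was 4.41, and for Il1b that of 0.35 was 2.68, too wide to read either way. Under library totals the split turned to 75 towards CD45+ and 167 towards CD45-, and without a count filter it was 162 against 173. Leaving out single libraries gave 69 to 312 towards CD45+ and 12 to 116 towards CD45-.

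Igf1r, Hspa4l and Cflar were the named list genes called towards CD45+ under all 30 alternatives. Igf1r, the receptor of insulin-like growth factors, had 67 to 284 CPM (median 154) in treated CD45+ cells and 22.7 to 46.8 CPM in control CD45+ cells, beside 21.9 to 31 and 32.3 to 50.3 CPM in the CD45- cells (difference 2.87 ± 0.41, adjusted p = 0.000431). The Hsp110 family chaperone Hspa4l had 52.6 to 249.9 CPM (median 102) and 29.8 to 43.6 CPM in the treated and control CD45+ cells (2.14 ± 0.38, adjusted p = 0.00232). Cflar (c-FLIP), which blocks caspase 8, had 232 to 752 CPM (median 364) and 164 to 176 CPM (1.42 ± 0.27, adjusted p = 0.00708). In all 3 genes the treated CD45+ libraries lay above every control CD45+ library. They were picked by their small p in this same contrast, so this separation is no separate support. The cystine transporter Slc7a11 (2.60 ± 0.57, adjusted p = 0.0122), the placental growth factor Pgf (2.07 ± 0.44, adjusted p = 0.0106), Il10rb (1.30 ± 0.28, adjusted p = 0.012), the lactate exporter Slc16a3 (1.42 ± 0.31, adjusted p = 0.012), Ier3 (1.49 ± 0.33, adjusted p = 0.0133), Mdm2 (0.85 ± 0.20, adjusted p = 0.0195) and Vegfa (1.06 ± 0.26, adjusted p = 0.0259) were called in the same direction, and each lost the call under at least 1 of 30 alternatives. The summed neutrophil markers ranged from 1466 to 40700.0 CPM in treated and from 391 to 2913 CPM in control CD45+ cells, with overlap. The summed T cell markers ranged from 647 to 1680 CPM in treated and from 1839 to 2378 CPM in control CD45+ cells, without overlap. The part of these cell types in the differences was not tested.

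Genes that moved towards CD45- included Atf3 and Csf1r. Atf3 was level between treated and control CD45+ cells (363 to 661 CPM and 448 to 553 CPM) and had 77.5 to 137 CPM in treated CD45- cells against 41.3 to 57 CPM in control CD45- cells, without overlap (-1.13 ± 0.27, adjusted p = 0.0217). Csf1r had 0.703 to 4.09 CPM in treated CD45- cells and no count in control CD45- cells, so the fitted value of -5.24 (adjusted p = 0.01) has no interpretable size. In treated CD45- cells 9 of 12 monocyte and macrophage markers were at the floor, and their part in this result was not tested. Among called genes with a mean of at least 10 CPM in a group, those named by size towards CD45- were Csf1r, the peptidase Dpp4 (-5.22 ± 1.17, adjusted p = 0.0152), Plac8 (-4.83 ± 1.22, adjusted p = 0.03), 2510002D24Rik (-4.21 ± 1.12, adjusted p = 0.0417) and Mcub (-3.45 ± 0.95, adjusted p = 0.0476). All had at most 3.52 CPM in every control CD45- library, and 2510002D24Rik, like Csf1r, had no count there, so its value is no size either. The fibroblast sum was 55.6 to 13030 CPM in treated and 18.0 to 1059 CPM in control CD45- cells, and Dpp4, Plac8 and Mcub were each highest in CD45- replicate 3. The part of fibroblasts in these calls was not tested. Those named towards CD45+ were Npas3 (5.21 ± 1.30, adjusted p = 0.0297), which had no count in control CD45+ cells, Echdc3 (4.41 ± 0.78, adjusted p = 0.00232), Gm15728 (4.28 ± 0.90, adjusted p = 0.0106), Gm14286 (4.02 ± 0.98, adjusted p = 0.0259) and Peg10 (3.90 ± 0.997, adjusted p = 0.0319). Gm14286 is annotated as antisense and Gm15728 as a lincRNA, and their counts are uncertain without the strand setting. Mcub lost its call under 19 of 30 alternatives, 2510002D24Rik under 16, Plac8 under 10 and Peg10 under 9, and of 29 alternatives Npas3 lost it under 9 and Gm14286 under 6, each of them also with replicate number as a block.

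**Figure D5:**
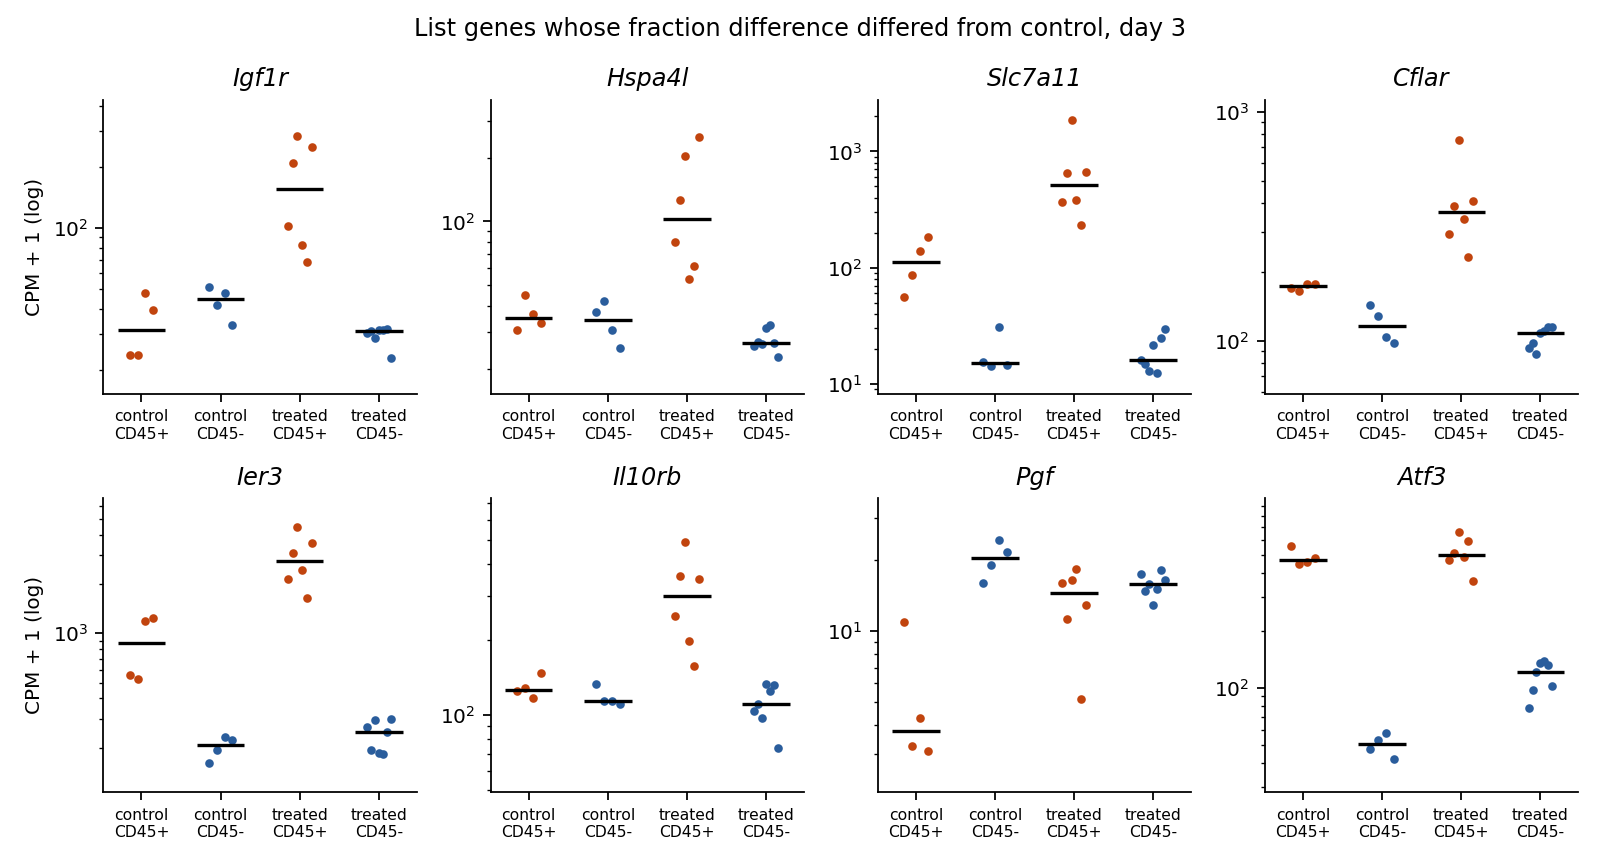
Shown are 8 list genes picked from those called against control, as scaled CPM plus 1 on a log axis. Control (4 libraries per fraction) and treated tumors (6 CD45+ and 7 CD45- libraries) of day 3 have 1 point per library, with a bar at the median. In Igf1r, Hspa4l and Cflar the treated CD45+ libraries lie above all control CD45+ libraries, and in Atf3 the treated CD45- libraries (77.5 to 137.2 CPM) lie above the control CD45- ones (41.3 to 57.0 CPM).

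Against the abscopal tumors, the same test called 139 genes (1.12%) towards CD45+ and 51 (0.412%) towards CD45-, 1.53% in either direction, with 1889 at an unadjusted p under 0.05. This comparison uses the same treated libraries as the one against control. Under library totals the counts were 77 and 104, without a count filter 180 and 194, and leaving out single libraries gave 68 to 334 and 14 to 147. Of the list members, 18 were called. Named by size towards CD45+ were Gm8288 (3.23 ± 0.77, adjusted p = 0.0252), Echdc3 (3.02 ± 0.58, adjusted p = 0.0061), Acot1 (3.02 ± 0.43, adjusted p = 0.000217), the immediate early factor Egr3 (2.65 ± 0.55, adjusted p = 0.00881) and Gm15708 (2.46 ± 0.64, adjusted p = 0.0405). Named towards CD45- were Dipk2a (-3.26 ± 0.82, adjusted p = 0.0333), Dpp4 (-2.94 ± 0.76, adjusted p = 0.0403), Thy1 (-2.80 ± 0.76, adjusted p = 0.0492), Gldc (-2.60 ± 0.71, adjusted p = 0.0492) and the histone gene H3c1 (-2.59 ± 0.62, adjusted p = 0.0253). Thy1 is a member of the fibroblast list as well as a T cell marker, and its CD45- values were 44.9, 14.4, 93.6, 0.628, 3.07, 36.8 and 11.5 CPM in order of replicate, highest in the replicates with the highest fibroblast sums. Of 36 alternatives, Thy1 lost its call under 27, Gldc under 24, Dpp4 under 21 and Dipk2a under 12, and Gm15708 lost it under 16 of 33. These 5 and H3c1 lost it with replicate number as a block, and Echdc3 and Acot1 were the named genes called under all alternatives.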

How the data were processed

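Sorted cells were profiled by 3' RNASeq (QuantSeq). The deposited values are raw counts per gene, which the authors made with Trim Galore 0.5.0, STAR 2.6.0 on GRCm38 and featureCounts, after UMIs were collapsed. The strand setting was not given in the sources used here, so overlapping and antisense genes are uncertain. A line without a gene name in the CD45+ table holds column totals (100% of each column) and was left out. The tables of both fractions were joined by symbol, lines that share a symbol were summed (55367 symbols), and tables of later time points were not used. The fractions were sorted and deposited as separate tables, and a preparation batch cannot be told apart from the fraction.

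All 35 day 3 libraries entered 1 edgeR 4.0.16 quasi-likelihood fit (R 4.3.3) with 6 groups, TMM factors and filterByExpr (minimum count 10, minimum total 15), which kept 12391 genes. TMM factors ran from 0.670 to 0.947 in treated CD45+ and 1.09 to 1.17 in treated CD45- libraries. Contrasts were treated CD45+ minus CD45-, and that difference minus the one in control or in abscopal tumors, called where the p adjusted by Benjamini-Hochberg was below 0.05, and for the 4-fold rule also at a log2 difference of 2 or more. Alternatives were DESeq2 1.42.0, limma-voom 3.58.1, library totals, upper quartile factors, no filter or a stricter filter (minimum count 30), only the groups compared, replicate number as a block, and each library left out. Depth was 1186404 to 3495650 counts per treated library, the ribosomal transcript CT010467.1 took 5.94 to 11.7% of them, and no 2 libraries of a group were as close as counting error alone would leave them (the smallest ratio of chi-square to its degrees of freedom was 1.99).

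The gene lists, the pairs and the rule for named genes were chosen with earlier results of these data known. Named were 63 fixed genes, the extremes of each list among genes past the 4-fold rule with a mean of at least 10 CPM, up to 5 genes per direction in each comparison of fraction differences, and the 10 list genes with the smallest p against control. Vegfb, Flt1, Nectin2, Cd226, Tnfsf12, Pdgfb, Pdgfrb, Nrg1 and Erbb3 were named from the pairs after their values were seen. Promoters came from RefSeq, and gene positions from the GENCODE annotation of GRCm38. The values of 1 of the fixed genes are not reported here.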

Additional observations from a re-analysis of the deposited data

Results flagged for a closer look

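Within the treated CD45+ and CD45- groups, a gene's highest or lowest library was set against the others by its gap to the nearest library divided by the range of the group, and the value after each gene is that share. Of 194 combinations of gene and group, 35 (18.0%) were beyond Dixon's limit, which chance passes in about 1 of 20 groups of normally distributed values. The CPM were not log-transformed and the combinations share libraries, so these rates cannot be compared. Only 1 of the flags was at the lowest end. CD45+ replicate 3 was the highest library for 15 genes, namely S100a8 0.771, S100a9 0.812, Tlr2 0.679, Tlr4 0.756, Cxcl5 0.914, Ccl2 0.666, Tnfrsf1b 0.627, Cd44 0.656, Slc7a11 0.735, Ackr3 0.841, Met 0.724, Egln3 0.76, Ptafr 0.768, Cflar 0.662 and Slc16a3 0.79. It was also the library with the highest sums of neutrophil and erythroid markers (40700.0 and 10990 CPM), and the part of these cells was not tested. CD45- replicate 3, with the highest fibroblast sum (13030 CPM), was the highest for Cxcl10 0.639, Il1r1 0.623, Il1r2 0.663, Tgfbr2 0.583, Ripk3 0.665 and Dpp4 0.611. CD45- replicate 7 was the highest for Cxcr3 0.648, Tnfrsf12a 0.712, Trib3 0.64 and H3c1 0.783 and the lowest for Igf1r 0.658. CD45+ replicate 6 was the highest for Cd47 0.801, Npas3 0.71 and Echdc3 0.655, and CD45- replicate 1 for Areg 0.797 and Gldc 0.619. The other CD45+ libraries stood apart in 1 gene each, replicate 1 in Peg10 0.666, replicate 2 in Acot1 0.678, replicate 4 in Calr 0.669 and replicate 5 in Bgn 0.713.

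The fraction difference of 21 named genes differed between treated and control tumors by edgeR's test of the difference itself. The log2 values towards CD45+ were Slc7a11 2.60, Npas3 5.21, Echdc3 4.41, Gm15728 4.28, Gm14286 4.02, Peg10 3.90, Igf1r 2.87, Hspa4l 2.14, Cflar 1.42, Pgf 2.07, Il10rb 1.30, Slc16a3 1.42, Ier3 1.49, Mdm2 0.85 and Vegfa 1.06, and those towards CD45- were Csf1r -5.24, Dpp4 -5.22, Plac8 -4.83, 2510002D24Rik -4.21, Mcub -3.45 and Atf3 -1.13. Control CD45- libraries had no count of Csf1r or 2510002D24Rik and control CD45+ libraries none of Npas3, so the fitted values of these genes depend on the prior count. Between treated and abscopal tumors the difference passed for 10 named genes, at Egr3 2.65, Echdc3 3.02, Gm8288 3.23, Acot1 3.02 and Gm15708 2.46 towards CD45+ and Dpp4 -2.94, Dipk2a -3.26, Thy1 -2.80, Gldc -2.60 and H3c1 -2.59 towards CD45-. Both comparisons use the same treated libraries.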

How the results depend on the processing

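Of 109 named genes tested between the fractions, 99 were called and 93 were called under every alternative. The counts over all genes stayed within 1.5 times the reported ones, except those at least 4-fold higher, which were 4283 in CD45+ and 2389 in CD45- without a filter (52 list members in CD45-), and 893 in CD45- under a stricter filter. Without each library in turn, 4833 to 4961 genes were higher in CD45+ and 4403 to 4537 in CD45-, with 2252 to 2362 and 1330 to 1398 at least 4-fold higher, and 219 to 231 and 33 to 36 list members. Directions turned for genes near 0. Under library totals these were Calr (-0.28), Anxa1 (-0.24), Hspa8 (-0.0355) and Dnajb1 (-0.21), and under upper quartile scaling Calr (-0.11), Anxa1 (-0.0341) and Dnajb1 (-0.0184). Without a filter Calr was at -0.026. With single libraries left out, Anxa1 ranged from -0.0682 (without CD45+ replicate 3) to 0.42, Ddit3 from -0.14 to 0.10 (above 0 without CD45+ replicate 4 or CD45- replicates 6 or 7) and Acot1 from -0.71 to 0.0789 (above 0 without CD45+ replicates 1, 4 or 5). Cxcl5 was at 0.95 without CD45- replicates 1 and 3. The median of heat shock chaperones had the other sign in 11 alternatives, and that of danger signals in 1. Upper quartile scaling moved the median of all genes to -0.22, with 4268 genes higher in CD45+ and 5495 in CD45-.

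The differences against control and abscopal tumors depended on the processing. Against control, the counts towards CD45+ and CD45- were 308 and 103 by DESeq2, 100 and 35 by limma-voom, 75 and 167 under library totals, 59 and 17 with only the groups compared, 112 and 38 with replicate number as a block, and 109 and 33 without CD45- replicates 1 and 3. Without a filter 173 moved towards CD45-. Against abscopal tumors they were 313 and 121 by DESeq2, 88 and 29 by limma-voom, 77 and 104 under library totals, and 85 and 19 without those replicates. Towards CD45- they were 194 without a filter and 27 with only the groups compared. Leaving out a library gave 69 to 312 and 12 to 116 against control, and 68 to 334 and 14 to 147 against abscopal tumors. Treated CD45+ replicate 5 gave the highest of each when left out, control CD45+ replicate 3 the lowest against control and treated CD45+ replicate 3 the lowest against abscopal. Counts towards CD45+ moved by over 1.5 times also without control CD45+ replicate 4 (84), control CD45- replicates 1 (85) and 2 (81) and treated CD45+ replicate 3 (91) against control, and without treated CD45+ replicate 4 (244) and CD45- replicate 2 (92) against abscopal. Of 21 genes named against control, Csf1r, Echdc3, Igf1r, Hspa4l and Cflar were called under all 30 alternatives. Of 10 named against abscopal tumors, Echdc3 and Acot1 were called under all alternatives. The cause of these changes was not tested.

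Same-numbered libraries of both fractions correlated at 0.00515 to 0.177 in treated tumors (own number best in 2 of 6), 0.0561 to 0.169 in control (2 of 4) and 0.0275 to 0.359 in abscopal tumors (5 of 7), so the numbers were not taken as pairs. With replicate number as a block, 4901 and 4579 genes were higher in CD45+ and CD45-, and 107 and 36 were called against abscopal tumors.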
